A study of Homo sapiens with 11 samples.

Results

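The regions described here are 990 intergenic peaks of a CUT&RUN study of the transcription factor MYC, out of 5435 regions in 5 deposited peak lists. CUT&RUN uses an antibody to bring a nuclease to a protein on DNA and sequences the fragments that are cut free. A region was intergenic here when the summit, its highest point, lay outside the span of every RefSeq gene, more than 1000 bp from the ends of protein-coding genes and no farther than 100 kb from the nearest gene of any kind. Chromosomes 1 to 18, 20 to 22 and X were used, without the short arms of chromosomes 13, 14, 15, 21 and 22, which left 4107 regions as the whole.

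All 11 libraries were made from HEK293T cells, a line from human embryonic kidney that carries the SV40 large T antigen. The edit_myc_FLAG and myc_FLAG groups, with 3 libraries each, were probed with a mouse antibody against the FLAG tag, and the endog_myc group, with 3 libraries, with a rabbit antibody against myc itself. Mouse IgG and rabbit IgG, with 1 library each, served as non-specific antibodies. What the word edit stands for, how the tag was introduced and whether the libraries of a group came from separate cultures stay unstated in the labels. Of the edit_myc_FLAG list 379 regions were intergenic, of myc_FLAG 212, of endog_myc 229, of mouse IgG 83 and of rabbit IgG 87. Each of the first 3 lists, called target lists below, stands for its 3 libraries together, so that no value carries a replicate spread, all intervals cover counting error only, and the read depth is unknown. A longer list may follow from deeper sequencing, and neighbouring regions share their surroundings, so p-values over regions are smaller than independent units would give. Fisher's exact tests between lists also treat the regions of both lists as separate, although many loci stand in both.

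MYC pairs with MAX through a helix-loop-helix and leucine zipper domain, and the pair binds E-box DNA, with CACGTG as its best-known form. It is found mainly at promoters of active genes, many of them for ribosome production, metabolism and growth, and it also acts on genes read by RNA polymerase III, such as those for 5S ribosomal RNA and transfer RNA. DNA between genes holds enhancers and promoters of unannotated transcripts, and also satellite repeats beside centromeres and telomere repeats at chromosome tips, where short reads are hard to place. IgG libraries show where fragments collect without a specific antibody.

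A few intergenic regions reached into the promoter of a non-coding gene, and the promoter sequence is shown for 3 genes because the regions there had the highest folds of those that did. The sequences run 5′ to 3′ on the gene's strand from 250 bases before to 50 after the start, from RefSeq on GRCh38.p14, and capitals mark the bases covered by the region of the list named. CHASERR, a long non-coding RNA gene upstream of CHD2 that lowers the output of CHD2, has its window at chr15:92882593-92882892 on the plus strand. LINC01003, a long non-coding RNA gene, has its window at chr7:152463874-152464173 on the plus strand. LINC02226, also a long non-coding RNA gene, has its window at chr5:8457515-8457814 on the minus strand and faces MIR4458HG, a microRNA host gene on the other strand.
CHASERR, covered in edit_myc_FLAG: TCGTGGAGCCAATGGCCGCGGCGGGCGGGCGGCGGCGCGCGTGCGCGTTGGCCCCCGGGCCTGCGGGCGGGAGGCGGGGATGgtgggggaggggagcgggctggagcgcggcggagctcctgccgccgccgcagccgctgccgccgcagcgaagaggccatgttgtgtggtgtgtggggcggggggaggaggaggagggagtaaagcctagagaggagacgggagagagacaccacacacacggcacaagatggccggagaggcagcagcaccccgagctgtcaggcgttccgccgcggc
LINC01003, covered in myc_FLAG: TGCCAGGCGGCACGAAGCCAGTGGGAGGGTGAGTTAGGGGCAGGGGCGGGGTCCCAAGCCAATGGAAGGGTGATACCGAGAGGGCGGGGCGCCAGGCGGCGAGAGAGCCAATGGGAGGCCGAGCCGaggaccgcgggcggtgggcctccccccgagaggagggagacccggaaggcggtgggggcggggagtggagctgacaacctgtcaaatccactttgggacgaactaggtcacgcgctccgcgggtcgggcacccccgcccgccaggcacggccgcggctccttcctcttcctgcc
LINC02226, covered in myc_FLAG: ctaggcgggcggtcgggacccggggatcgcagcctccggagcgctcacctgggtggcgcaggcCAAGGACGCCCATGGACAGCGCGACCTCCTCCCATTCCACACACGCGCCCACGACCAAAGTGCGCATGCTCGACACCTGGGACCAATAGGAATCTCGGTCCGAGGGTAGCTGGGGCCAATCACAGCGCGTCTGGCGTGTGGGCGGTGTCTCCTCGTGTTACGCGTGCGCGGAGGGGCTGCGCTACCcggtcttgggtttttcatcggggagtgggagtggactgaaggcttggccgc

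The CHASERR region lay in each target list but in neither IgG list. Its fold enrichment, the caller's ratio of signal over background as deposited by the authors, was 7.12 in edit_myc_FLAG, 8.12 in myc_FLAG and 5.58 in endog_myc. The region covered 82, 28 and 36 bases of the window in these lists, and its summits lay 249, 404 and 277 bp before the gene. At LINC01003 the fold was 5.36 in edit_myc_FLAG and 6.69 in myc_FLAG, and endog_myc had no region there. The LINC02226 region had a fold of 6.41 in myc_FLAG, its summit lay 32 bp from the gene, and it also overlapped a region of another target list. All 3 windows were rich in G and C, at 74.7% for CHASERR, 71.7% for LINC01003 and 67.3% for LINC02226, against a median of 58.7% over 35116 promoter windows.

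In all, 6 intergenic places overlapped 7 promoter windows, each outside IgG. Besides the 3 windows above and that of MIR4458HG, these were LOC124902872, LOC124903629 and LOC101927060, covered in edit_myc_FLAG with folds of 4.74, 4.95 and 5.49. Their summits lay 271, 119 and 92 bp from the gene, the last 2 nearer than at CHASERR and LINC01003. The E-box CACGTG was found on neither strand in the 7 windows. It is in 7.26% of all windows and in 9.90% of the 16447 windows with at least 60% G and C, a level that all 7 reach. Its variant CACGCG, searched on both strands, was in 5 of the 7 windows, against 11.4% of all windows and 20.6% of those with at least 60% G and C. It lay inside the covered bases at LINC02226, at MIR4458HG and, in edit_myc_FLAG alone, at CHASERR, and outside them at LINC01003 and LOC124903629. CCAAT, the core of the site of the factor NF-Y, was in 7 of the 7 windows on one strand or the other, against 34.6% of all windows and 28.7% of the windows with at least 60% G and C. This motif was searched for after the sequences had been read. In CHASERR, LINC01003, LINC02226, MIR4458HG and LOC101927060 a CCAAT lay inside the covered bases, and in the other 2 it did not. The windows of LINC02226 and MIR4458HG share bases, so these are not 7 separate sites, and a match of letters is not a bound site.

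Intergenic regions made up a smaller share of each target list than of its IgG list. The share was 21.8% in edit_myc_FLAG (379 of 1735, 95% Wilson interval 19.96 to 23.9), 22.5% in myc_FLAG (212 of 942, 19.95 to 25.3) and 22.8% in endog_myc (229 of 1003, 20.3 to 25.5), against 38.6% in mouse IgG (83 of 215, 32.4 to 45.3) and 41.0% in rabbit IgG (87 of 212, 34.6 to 47.8). The difference between edit_myc_FLAG and mouse IgG was −16.8 points (adjusted p = 7.27e-07, two-sided Fisher's exact test with Benjamini-Hochberg adjustment over 6 comparisons). It was −16.1 points between myc_FLAG and mouse IgG (Fisher's exact test, adjusted p = 4.81e-06), and −18.2 points between endog_myc and rabbit IgG (adjusted p = 7.07e-07). The target lists differed from each other by less than 1 point. Their adjusted p in that exact test was 0.836 for edit_myc_FLAG against myc_FLAG, with an interval of the difference from −4.01 to 2.58 points, 0.836 against endog_myc, from −4.28 to 2.21, and 0.871 between myc_FLAG and endog_myc, from −4.04 to 3.40. With distance to protein-coding genes only as the rule, the shares were 18.3% in edit_myc_FLAG (317 of 1735) and 15.8% in myc_FLAG (149 of 942), against 43 of 215 in mouse IgG, and both calls were lost (Fisher's exact test, adjusted p = 0.619 and 0.232). The edit_myc_FLAG call was also lost in the following cases. With its list cut to the 215 regions of mouse IgG the shares were 29.3% and 38.6% (Fisher's exact test, adjusted p = 0.0792), and without the 2 windows of chromosomes 4 and 1 described below they were 18.3% (302 of 1648) and 42 of 168 (adjusted p = 0.0778). Other settings kept the calls at a smaller size. With a limit of 50 kb the differences were −7.65 points in edit_myc_FLAG, −8.56 in myc_FLAG and −11.0 in endog_myc. Without the 2 windows they were −8.76 in myc_FLAG and −10.4 in endog_myc, and with protein-coding genes only −9.05 in endog_myc.

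**Figure D1:**
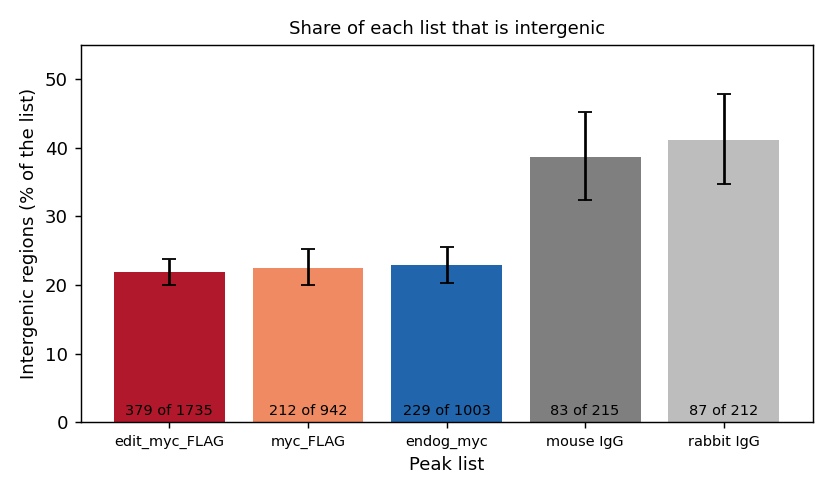
Bars give the percentage of each peak list, on the chromosomes used, that is intergenic, with 95% Wilson intervals and the numbers of regions at the foot. The 3 target lists lie between 21.8% and 22.8%, below mouse IgG at 38.6% and rabbit IgG at 41.0%.

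Many intergenic regions of the target lists recurred in IgG, far more often than regions at gene ends of the same list, meaning those within 1000 bp of an end of a protein-coding gene. In edit_myc_FLAG 106 of 379 intergenic regions overlapped an IgG region by at least 1 bp (27.97%, 23.7 to 32.7), against 1.50% at gene ends (adjusted p = 9.46e-37, two-sided Fisher's exact test), with 14.2% over its whole list. In myc_FLAG it was 102 of 212 (48.1%, 41.5 to 54.8), against 3.61% at gene ends (Fisher's exact test, adjusted p = 7.81e-27), with 26.6% over the whole list. In endog_myc it was 100 of 229 (43.7%, 37.4 to 50.1), against 3.10% at gene ends (Fisher's exact test, adjusted p = 5.54e-27), with 24.8% over the whole list. The 3 target lists thus shared about equal numbers of intergenic regions with IgG, and the percentages differed with the length of the list. The IgG lists themselves held 3 (mouse) and 11 (rabbit) regions at gene ends, against 83 and 87 intergenic ones. Few regions at gene ends could thus overlap IgG. The tests against gene ends largely restate the make-up of the IgG lists and lend no independent support.

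Gene-poor regions, those over 100 kb from any gene, are the nearest neighbours of the intergenic class. In myc_FLAG the intergenic overlap with IgG was 21.2 points above that of gene-poor regions, 48.1% against 26.9% (adjusted p = 5.20e-07, two-sided Fisher's exact test). Without the windows on chromosomes 4 and 1 the shares were 37.9% and 25.8% (Fisher's exact test, adjusted p = 0.0105), and with overlap with mouse IgG alone the difference was 13.8 points. In endog_myc it was 17.4 points above, 43.7% against 26.2% (Fisher's exact test, adjusted p = 1.44e-05), a call that was lost without the windows on chromosomes 4 and 1, at 31.9% against 25.5% (adjusted p = 0.139). In edit_myc_FLAG the classes had 27.97% and 29.6% (Fisher's exact test, adjusted p = 0.672), with an interval of the difference from −8.51 to 5.08 points. Without those windows the edit_myc_FLAG values were 18.9% and 28.4% (Fisher's exact test, adjusted p = 0.0105). The windows were picked as the fullest in intergenic regions over all lists, IgG included. Leaving them out changed the intergenic counts from 106 of 379 to 57 of 302, and the gene-poor ones from 91 of 307 to 85 of 299. This gained call thus lends no independent support.

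Seen from the IgG side, intergenic background was nearly always in the target lists too. Of 87 rabbit IgG regions, 87 overlapped a region of edit_myc_FLAG, of myc_FLAG and of endog_myc. Of 83 mouse IgG regions, 79 overlapped a region of edit_myc_FLAG, 78 of myc_FLAG and 78 of endog_myc. Shares over the whole IgG lists are not given for these overlaps with target lists. Whether intergenic IgG regions differ in this from other IgG regions was thus not tested. Between the IgG lists themselves, 57 of 83 mouse IgG regions (68.7%) recurred in rabbit IgG and 59 of 87 (67.8%) in the opposite direction. Over the whole lists it was 131 of 215 (60.9%) and 133 of 212 (62.7%), and among gene-poor regions 54.3% and 70.8%. Intergenic regions in IgG were also wider than the rest: the median width in edit_myc_FLAG was 579 bp for those in IgG and 231 bp for those outside, in myc_FLAG 584 and 262 bp, and in endog_myc 613 and 284 bp. The same held over the whole lists, with 496 and 230 bp in edit_myc_FLAG, 510 and 250 bp in myc_FLAG, and 519 and 271 bp in endog_myc.

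The 4 intergenic regions of highest fold in each target list were also IgG regions. A locus on chromosome 13, chr13:109424128-109424336, 19920 bp from the non-coding gene LOC105370359, ranked first in all 3, with folds of 36.9 (edit_myc_FLAG), 44.2 (myc_FLAG) and 35.7 (endog_myc), and it was in rabbit IgG with 32.2. Beside MTCYBP13, a nuclear copy of the mitochondrial cytochrome b gene on chromosome 17, the fold was 34.0 in edit_myc_FLAG, 34.4 in myc_FLAG, 30.8 in endog_myc, 23.2 in mouse IgG and 31.5 in rabbit IgG. The 5 loci that led by mean rank and lay in IgG were these 2 and those nearest to ABCD1P4, a pseudogene, DEFB115, a beta-defensin gene, and LOC105378144. At the last 3 loci the fold was 17.4 to 25.1 in edit_myc_FLAG, 17.5 to 20.2 in myc_FLAG, 18.5 to 20.6 in endog_myc, 11.7 to 16.1 in mouse IgG and 12.4 to 12.9 in rabbit IgG. Some regions outside IgG stood nearly as high: in edit_myc_FLAG those near LOC107986338 (20.96) and RNU6-717P (19.04), described below, ranked 5 and 6, and in myc_FLAG 1 near ABCD1P2 (17.4), picked after values were seen, ranked 7. The DEFB115 locus was also the member nearest the outer limit: its edit_myc_FLAG summit lay 99828 bp from the gene, and the first region outside, in endog_myc, lay 100265 bp from LOC100422478. At the inner limit, a region 1003 bp from RAP2A, a small GTPase gene, was kept in edit_myc_FLAG, and 1 in endog_myc 996 bp from PBX3, a homeobox gene, was not.

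**Figure D2:**
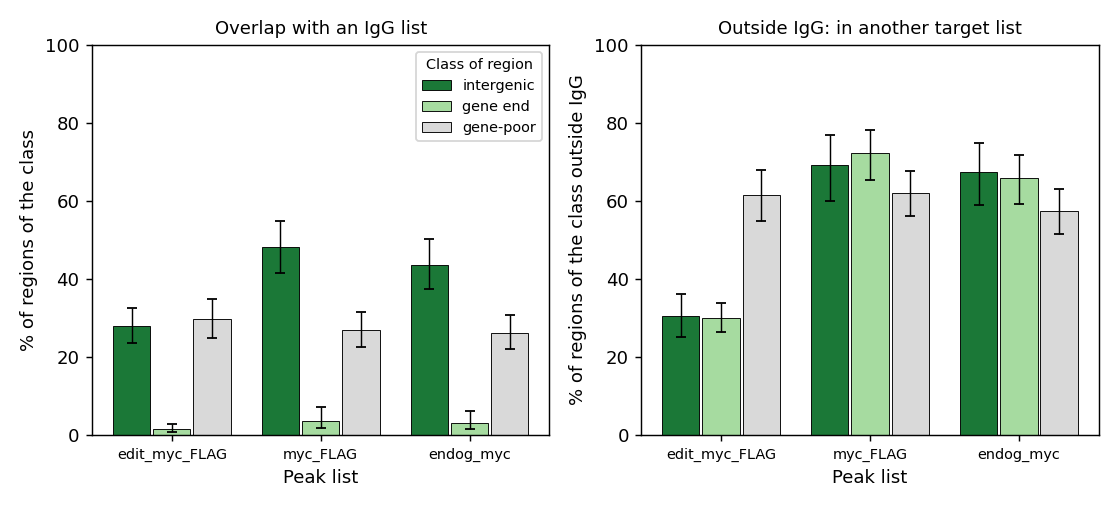
The left panel gives the percentage of regions that overlap an IgG list, and the right panel the percentage of regions outside IgG found in another target list, for intergenic, gene-end and gene-poor regions of each target list with 95% Wilson intervals. Intergenic overlap with IgG is 27.97% to 48.1% while gene ends stay at 1.50% to 3.61%, and on the right intergenic and gene-end regions lie within 3.10 points of each other in every list.

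Outside IgG, and with the lists at their full length, the recurrence of intergenic regions between target lists differed from that of regions at gene ends by at most 3.10 points. In edit_myc_FLAG 83 of 273 were in at least 1 other target list (30.4%, 25.2 to 36.1), against 29.9% at gene ends (adjusted p = 0.936, two-sided Fisher's exact test, interval of the difference −5.96 to 7.17 points) and 61.6% of gene-poor regions (adjusted p = 4.58e-11). Over the whole list outside IgG the share was 32.7%. In myc_FLAG 76 of 110 recurred (69.1%, 59.9 to 77.0), against 72.2% at gene ends (Fisher's exact test, adjusted p = 0.896, −14.0 to 7.31 points) and 62.1% of gene-poor regions (adjusted p = 0.478), with 64.7% over the whole list. In endog_myc 87 of 129 recurred (67.4%, 59.0 to 74.9), against 65.8% at gene ends (Fisher's exact test, adjusted p = 0.936, −8.69 to 11.6 points) and 57.3% of gene-poor regions (adjusted p = 0.193), with 61.7% over the whole list. The members were thus close to their lists' background. The result depended on how strong a call had to be and on the length of the lists. With the target lists cut to equal length intergenic regions had the lower share in all 3: 33.6% against 39.6% at gene ends in edit_myc_FLAG (Fisher's exact test, adjusted p = 0.465), 48.2% against 62.6% in myc_FLAG (adjusted p = 0.0625) and 52.9% against 59.6% in endog_myc (adjusted p = 0.465). Among regions with a −log10 q of at least 5, a stricter false discovery limit, intergenic regions recurred more often than gene ends in all 3 lists: 58.8% against 40.4% in edit_myc_FLAG (Fisher's exact test, adjusted p = 0.00297), 85.9% against 70.7% in myc_FLAG (adjusted p = 0.0199) and 83.2% against 67.0% in endog_myc (adjusted p = 0.0140). In myc_FLAG the sign of the difference turned. The limit was applied to the IgG lists too, so regions that overlapped only weaker IgG regions counted as outside IgG. The intergenic regions compared were 136 in edit_myc_FLAG, 92 in myc_FLAG and 95 in endog_myc. By the full IgG lists, 112, 70 and 72 intergenic regions at that limit lay outside IgG. Recurrence of these alone was not tested. At that limit edit_myc_FLAG no longer differed in the test from gene-poor regions (58.8% against 67.8%, adjusted p = 0.138), while in Fisher's exact test myc_FLAG (85.9% against 63.8%, adjusted p = 6.01e-04) and endog_myc (83.2% against 64.5%, adjusted p = 0.00291) exceeded them.

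Intergenic regions reached that limit more often than their lists did. The share was 57.0% in edit_myc_FLAG against 45.0% for its whole list, 80.2% against 66.3% in myc_FLAG, and 74.7% against 64.4% in endog_myc. Outside IgG the shares were 41.0%, 63.6% and 55.8%, beside 36.8%, 55.6% and 54.1% for all regions outside IgG of the same lists. Gene-poor regions also stood above their lists, at 72.6%, 78.2% and 73.8% in all and at 64.8%, 71.7% and 66.2% outside IgG, where they were above intergenic regions in each list. These are descriptions without a test. The median fold of intergenic regions was 5.10 in edit_myc_FLAG, 5.33 in myc_FLAG, 4.96 in endog_myc, 5.02 in mouse IgG and 5.39 in rabbit IgG, and outside IgG it was 4.98, 4.73 and 4.72 in the target lists.

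Which target list shared more with another could not be told from the intergenic regions outside IgG. Of 273 edit_myc_FLAG regions 55 were in myc_FLAG and 70 in endog_myc, with 13 in myc_FLAG only and 28 in endog_myc only (adjusted p = 0.0826, exact two-sided McNemar test over 3 comparisons). Of 110 myc_FLAG regions 58 were in edit_myc_FLAG and 62 in endog_myc (exact McNemar test, adjusted p = 0.597). Of 129 endog_myc regions 69 were in edit_myc_FLAG and 60 in myc_FLAG (exact McNemar test, adjusted p = 0.349). Without the windows on chromosomes 4 and 1 the first became 39 and 53 of 245 (exact McNemar test, adjusted p = 0.0484), and with the lists cut to equal length the second became 29 and 45 of 110 (adjusted p = 0.0210).

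Intergenic regions of edit_myc_FLAG lay closer to genes than those of every list it was tested against. Within 10 kb of a gene lay 158 of 379 edit_myc_FLAG regions (41.7%), 61 of 212 for myc_FLAG (28.8%), 66 of 229 for endog_myc (28.8%), 16 of 83 in mouse IgG (19.3%) and 16 of 87 in rabbit IgG (18.4%). The median distance was 15181 bp for edit_myc_FLAG, 28340 bp for myc_FLAG, 30172 bp for endog_myc, and 40487 bp in mouse IgG and 38416 bp in rabbit IgG. The edit_myc_FLAG share exceeded mouse IgG by 22.4 points (adjusted p = 5.77e-04, two-sided Fisher's exact test), myc_FLAG by 12.9 points and endog_myc by 12.9 points (adjusted p = 0.00377 for both). The comparison of myc_FLAG with mouse IgG gave a difference of 9.50 points (Fisher's exact test, adjusted p = 0.127, interval −1.80 to 19.04), that of endog_myc with rabbit IgG 10.4 points (adjusted p = 0.0944, −0.463 to 19.6), and that of myc_FLAG with endog_myc −0.0474 points (adjusted p = 1, −8.43 to 8.40).

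These calls moved with the set of regions and genes. With target regions in IgG left out, myc_FLAG exceeded mouse IgG (38.2% against 19.3%, Fisher's exact test, adjusted p = 0.0135) and endog_myc exceeded rabbit IgG (38.0% against 18.4%, adjusted p = 0.00720). The regions removed were chosen by their overlap with the IgG lists of the comparison, and 19 of 102 in myc_FLAG and 17 of 100 in endog_myc lay within 10 kb of a gene, so both values lend no independent support. The 3 calls for edit_myc_FLAG were lost at a −log10 q of at least 5, where its share was 29.2% against 23.5% in myc_FLAG, 22.8% in endog_myc and 14.7% in mouse IgG (Fisher's exact test, adjusted p = 0.296, 0.248 and 0.103). They were also lost with protein-coding genes only, where the shares were 13.2%, 7.55%, 9.17% and 4.82% (Fisher's exact test, adjusted p = 0.123, 0.305 and 0.123), and without the windows on chromosomes 4 and 1 (adjusted p = 0.0651 for all 3).

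**Figure D3:**
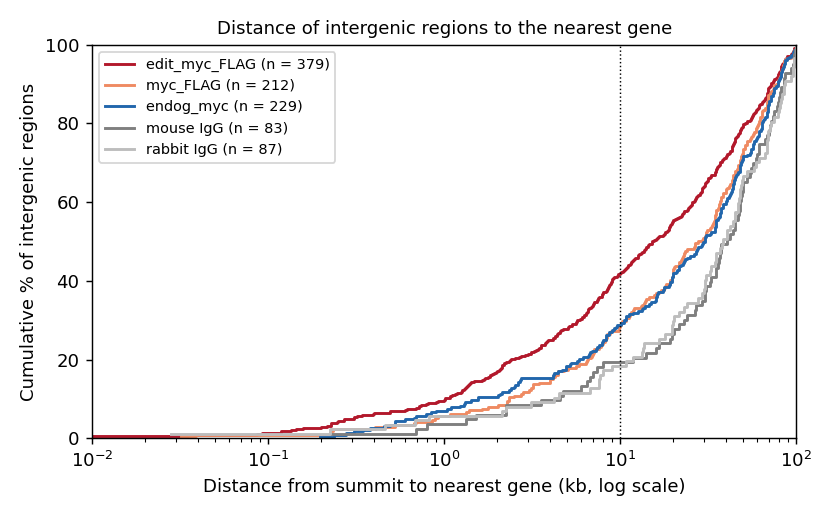
Curves give the cumulative percentage of each list's intergenic regions by the distance from summit to nearest gene, in kb on a log scale, with a dotted line at 10 kb. At that line edit_myc_FLAG stands at 41.7%, myc_FLAG and endog_myc at 28.8%, mouse IgG at 19.3% and rabbit IgG at 18.4%.

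The genes nearest to intergenic regions were mostly non-coding, as were most annotated genes. Of all genes on the chromosomes used 33.0% were protein-coding, 31.2% long non-coding RNA genes, 26.1% pseudogenes and 2.07% transcribed pseudogenes. The definition also bears on the nearest genes, since it drops regions beside ends of protein-coding genes and keeps those beside ends of other genes. In edit_myc_FLAG the nearest gene was a long non-coding RNA gene for 153 regions (40.4%), a pseudogene for 109 and a transcribed pseudogene for 27, and a protein-coding gene for 81 (21.4%). In myc_FLAG a protein-coding gene was nearest for 44 regions (20.8%) and in endog_myc for 48 (20.96%), against 14 in mouse IgG (16.9%) and 14 in rabbit IgG (16.1%). Near genes whose strand was known, the regions lay on either side. Of 59 such edit_myc_FLAG regions outside IgG and within 10 kb, 29 lay on the start side and 30 on the 3′ side, in myc_FLAG 8 and 9 of 17, and in endog_myc 11 and 8 of 19.

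A large part of the intergenic regions sat beside the largest gene-free stretch of their chromosome, which on most chromosomes used spans the centromere, taken with a flank of 1 Mb. This held for 127 of 379 edit_myc_FLAG regions (33.5%), 106 of 212 for myc_FLAG (50%) and 111 of 229 for endog_myc (48.5%), against 57 of 83 in mouse IgG (68.7%) and 56 of 87 in rabbit IgG (64.4%). The edit_myc_FLAG share differed by −35.2 points from mouse IgG (adjusted p = 3.36e-08, two-sided Fisher's exact test), by −16.5 points from myc_FLAG (adjusted p = 3.26e-04) and by −14.96 points from endog_myc (adjusted p = 6.19e-04). The myc_FLAG share differed by −18.7 points from mouse IgG (Fisher's exact test, adjusted p = 0.00623) and that of endog_myc by −15.9 points from rabbit IgG (adjusted p = 0.0144), while myc_FLAG and endog_myc differed by 1.53 points (adjusted p = 0.775, −7.75 to 10.8). With regions closer than 10 kb counted once, edit_myc_FLAG against mouse IgG stayed past the threshold. The other 4 calls were then lost, with 19.3% in myc_FLAG against 36.1% in mouse IgG (Fisher's exact test, adjusted p = 0.0899) and 16.5% in endog_myc against 31.7% in rabbit IgG (adjusted p = 0.0899) as the widest of them. At a −log10 q of at least 5, edit_myc_FLAG against myc_FLAG and against endog_myc and endog_myc against rabbit IgG were lost. Without the windows on chromosomes 4 and 1, myc_FLAG against mouse IgG, endog_myc against rabbit IgG and edit_myc_FLAG against myc_FLAG were lost. With a flank of 5 Mb, endog_myc against rabbit IgG was lost, at 61.6% against 73.6% (Fisher's exact test, adjusted p = 0.0585). The call of edit_myc_FLAG against mouse IgG was kept in these 3 cases, and without the windows the difference was −21.5 points (Fisher's exact test, adjusted p = 0.0156).

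**Figure D4:**
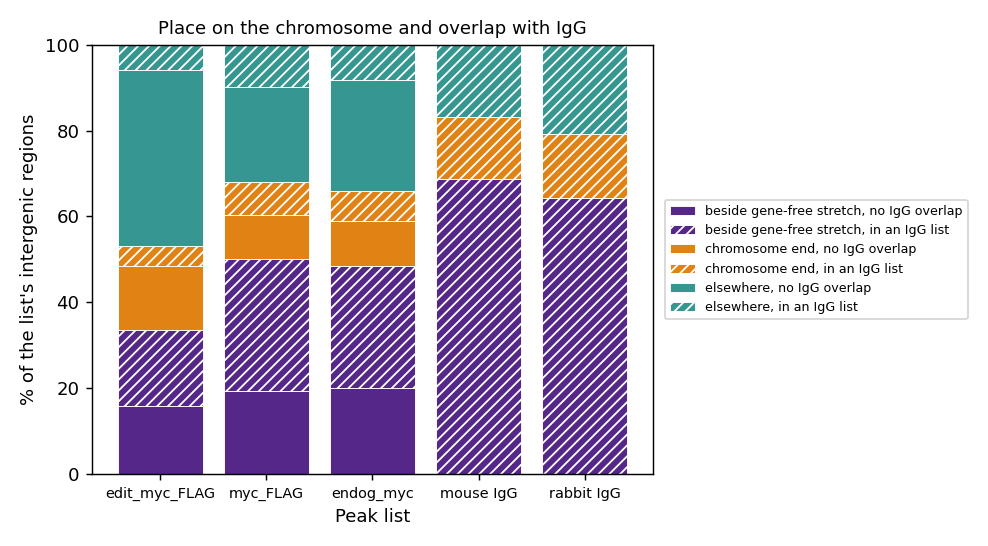
Stacked bars give, for each list, the percentage of its intergenic regions beside the gene-free stretch, within 3 Mb of the outermost gene of the chromosome, or elsewhere, and hatching marks regions found in an IgG list, which is every region of the IgG lists themselves. The stretch accounts for 33.5% of edit_myc_FLAG, 50% of myc_FLAG and 48.5% of endog_myc, against 68.7% of mouse IgG and 64.4% of rabbit IgG.

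The crowding was concentrated in 2 windows of 1 Mb, which held 300 of the 990 regions (30.3%). On chromosome 4 between 49091419 and 49657988 lay 43 regions in edit_myc_FLAG, 42 in myc_FLAG and 40 in endog_myc, with 21 in mouse IgG and 22 in rabbit IgG. On chromosome 1 between 143200210 and 143267532 lay 34, 30 and 29 in the target lists, with 20 in mouse IgG and 19 in rabbit IgG. In each target list 25 of the regions in the first window and 24 in the second overlapped IgG. Their folds were modest, with medians of 4.72, 4.21 and 4.24 on chromosome 4 and 3.73, 3.66 and 3.51 on chromosome 1 in edit_myc_FLAG, myc_FLAG and endog_myc. Whether reads can be placed uniquely there was not tested.

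The next fullest windows of 1 Mb differed in how much of them IgG held. On chromosome 16 between 46000000 and 46999999 lay 7 regions in each target list, of which 6 overlapped IgG, with 5 in mouse IgG and 6 in rabbit IgG. On chromosome 17 between 21000000 and 21999999 lay 9 edit_myc_FLAG regions, 8 of myc_FLAG and 8 of endog_myc, of which 3 in each list overlapped IgG. On chromosome 10 between 42000000 and 42999999 lay 7, 7 and 10, of which 1 in each list overlapped IgG. Of the 12 fullest windows 1 had no region in IgG. It lay on chromosome 2 between 90000000 and 90999999 and held 4 edit_myc_FLAG regions, 7 of myc_FLAG and 6 of endog_myc, with folds of 2.50 to 4.24. The target lists are longer than the IgG lists, so an empty IgG window is not a measure of absence. Within 3 Mb of the outermost gene lay 74 intergenic regions in edit_myc_FLAG (19.5%), 38 in myc_FLAG (17.9%) and 40 in endog_myc (17.5%), against 12 in mouse IgG (14.5%) and 13 in rabbit IgG (14.9%). Elsewhere lay 178 in edit_myc_FLAG (47.0%), 68 in myc_FLAG (32.1%) and 78 in endog_myc (34.1%), against 14 in mouse IgG (16.9%) and 18 in rabbit IgG (20.7%). These last shares were defined after values had been seen and were not tested.

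Merging overlapping regions of all lists gave 470 intergenic loci, and a list counts for a locus when any of its regions, intergenic or not, overlaps an intergenic region there. The most frequent pattern was edit_myc_FLAG alone, with 190 loci, followed by 58 loci in all 5 lists. A further 42 were in endog_myc alone, 34 in myc_FLAG alone, and 40 in all 3 target lists with no IgG. Among pairs of target lists without IgG, edit_myc_FLAG and endog_myc shared 27 loci, myc_FLAG and endog_myc 18, and edit_myc_FLAG and myc_FLAG 13. The edit_myc_FLAG list was also the longest, with 1735 regions against 942 in myc_FLAG and 1003 in endog_myc. Outside IgG 30.4% of its intergenic regions were in another target list, close to 32.7% over its whole list. Of the 190 loci in edit_myc_FLAG alone, 129 lay away from both the gene-free stretch and the chromosome ends and 40 lay at chromosome ends. Of the 40 loci shared by the target lists only, 21 lay beside a gene-free stretch, 10 at chromosome ends and 9 elsewhere, and of the 99 with an intergenic region in each target list and an overlap with IgG, 65 lay beside a stretch. Loci in edit_myc_FLAG alone were narrow, at a median width of 207 bp, against 369 bp in the same list for the 40 shared loci.

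Among the loci in all 3 target lists and no IgG, the 12 with the best mean rank of fold lay mostly near chromosome ends. Of these 8 lay at chromosome ends, 1 beside a gene-free stretch and 3 elsewhere. Near LOC107986338 on chromosome 4, where the double homeobox gene DUX4 is 50893 bp away, the fold was 20.96 in edit_myc_FLAG, 9.30 in myc_FLAG and 5.94 in endog_myc. Near PARD6G, a cell polarity gene on chromosome 18, it was 16.1, 5.43 and 6.49, and near RPL23AP82, a ribosomal protein pseudogene on chromosome 22, 14.9, 6.43 and 5.90. Near RPL23AP25, a like pseudogene on chromosome 1, it was 13.2 in edit_myc_FLAG, 7.79 in myc_FLAG and 8.10 in endog_myc. At these 4 loci the edit_myc_FLAG fold was the highest of the 3. It was also the highest at UNCX, a homeobox gene on chromosome 7, with 10.5 in edit_myc_FLAG, 7.07 in myc_FLAG and 6.81 in endog_myc.

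The order of the lists varied at the remaining loci. LOC647208, a pseudogene on chromosome 16, had the opposite order, with 7.81 in edit_myc_FLAG, 9.39 in myc_FLAG and 10.9 in endog_myc. LOC101059977, a pseudogene on chromosome 8, had 7.62, 9.74 and 6.404, and LOC124905149, near the arylsulfatase A gene ARSA on chromosome 22, had 7.84, 8.85 and 7.45. LOC105374777 on chromosome 2 had 8.96, 6.72 and 8.47, LOC105374618 on chromosome 5 had 8.41, 7.17 and 4.98, and RAP1GAP2, a gene for an activator of the GTPase activity of Rap1, had 6.72, 6.48 and 6.27. Over all 40 loci the median fold was 4.86 in edit_myc_FLAG, 5.05 in myc_FLAG and 4.65 in endog_myc. The highest of the 3 values was in edit_myc_FLAG at 23 loci, in myc_FLAG at 11 and in endog_myc at 6. Folds of different lists may rest on different depths, which are unknown, and were not tested against each other.

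**Figure D5:**
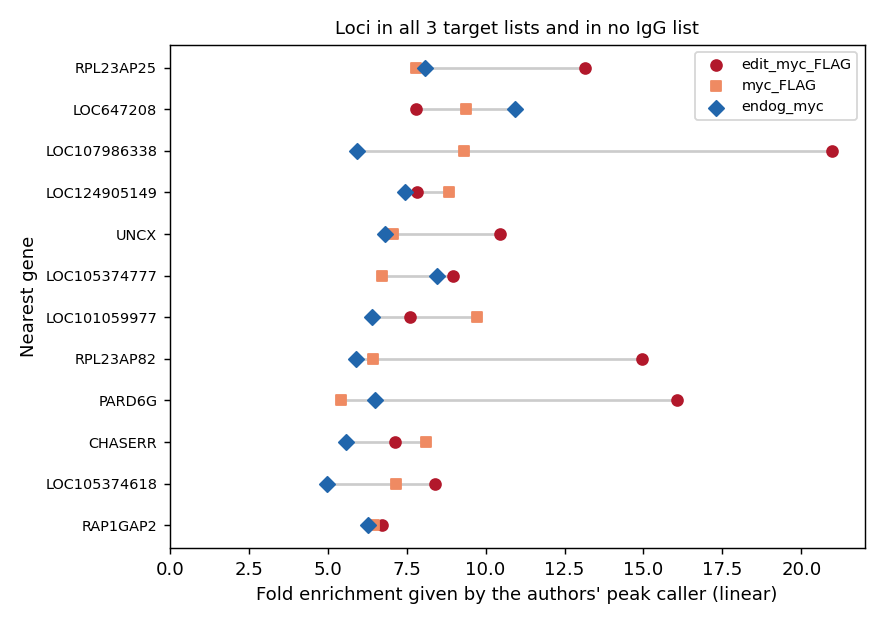
Points give the authors' fold enrichment (linear scale) at the 12 leading loci that every target list and neither IgG list held, labelled by nearest gene, with 1 symbol per list. At LOC107986338, PARD6G, RPL23AP82 and RPL23AP25 edit_myc_FLAG stands at 13.2 to 20.96 while myc_FLAG and endog_myc stay between 5.43 and 9.30.

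Some of the highest intergenic folds in edit_myc_FLAG lay at the very tips of chromosomes. Beyond the outermost annotated gene of a chromosome lay 16 intergenic regions in edit_myc_FLAG on 11 chromosomes, 9 in myc_FLAG and 8 in endog_myc, with 2 in each IgG list. Their median fold in edit_myc_FLAG was 9.68, against 5.07 for its other intergenic regions. In myc_FLAG the medians were 5.67 and 5.26, and in endog_myc 6.73 and 4.89. Their share of the intergenic regions was 4.22% in edit_myc_FLAG, 4.25% in myc_FLAG and 3.49% in endog_myc, against 2.41% in mouse IgG and 2.30% in rabbit IgG. This grouping was made after values had been seen and carries no test.

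Several tips were in edit_myc_FLAG only. Of its 16 tip regions 3 overlapped IgG, and a further 4 were in another target list. Over its whole list outside IgG 487 of 1488 regions (32.7%) were in another target list, so most stood in this list alone. The region of highest fold found in no other list, 19.04, lay on chromosome 12 at chr12:133264951-133265276, 26681 bp beyond RNU6-717P, a pseudogene of the U6 spliceosomal RNA. LOC102723376 on chromosome 10 had a region starting at base 10089 with a fold of 11.6, and LINC01986 on chromosome 3 one starting at base 10155 with 10.02. Regions starting at bases 10024 on chromosome 7, 10047 on chromosome 12 and 10151 on chromosome 18 had folds of 6.97, 7.54 and 6.34. On chromosome 1 the tip beside DDX11L1, a helicase pseudogene, was in edit_myc_FLAG with 9.34 and in myc_FLAG with 5.43. Other tips were in IgG as well: on chromosome X beside DDX11L16 the fold was 18.4 in edit_myc_FLAG, 5.15 in myc_FLAG and 7.10 in endog_myc, against 4.98 in rabbit IgG. Tips carry near-identical repeats, so which chromosome a read came from is uncertain.

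The 5 regions of highest fold found in edit_myc_FLAG only include the tips of chromosomes 12, 10 and 3 above. In the same list, FAM230E, a non-coding gene on chromosome 22, had 16.8 and LINC00685 on chromosome X had 10.8. In myc_FLAG the highest were 10.8 near RNU6-439P on chromosome 2, 8.41 near PRIM2BP, a primase pseudogene, 6.98 near LINC02500, 6.14 near RPL35P8 and 6.13 near LOC124900189. In endog_myc they were 6.57 before TMEM216, a gene of the ciliary transition zone, 6.21 beside FAM86GP, 6.19 near LOC105374308, 5.90 near LOC105376194 and 5.83 near DEFB115. The TMEM216 region lay 1293 bp before the start of the gene. These regions were absent from the other lists as called, which does not show absence of signal.

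Some intergenic regions lay close to ends of non-coding genes. Within 1000 bp of such an end and outside IgG lay 31 of 379 edit_myc_FLAG regions, 8 of 212 for myc_FLAG and 12 of 229 for endog_myc. A further 5, 4 and 4 overlapped IgG. Outside IgG were thus 31 of the 36 edit_myc_FLAG regions that close, 8 of 12 for myc_FLAG and 12 of 16 for endog_myc, beside 72.0%, 51.9% and 56.3% of all intergenic regions of these lists, and the difference was not tested. In the IgG lists themselves 3 of 83 mouse and 5 of 87 rabbit regions lay that close. Besides those at CHASERR, LINC01003, LINC02226, FAM86GP and RNA5SP19 the highest were beside LOC105379016 on chromosome 5 with 7.61 in edit_myc_FLAG, LOC105369250 on chromosome 4 with 6.03 and LOC105369744 on chromosome 12 with 5.71 in the same list.

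Genes for 5S ribosomal RNA, which RNA polymerase III transcribes, stood near intergenic regions of all 3 target lists. The 5S pseudogene RNA5SP19 on chromosome 1 had a region 694 to 784 bp away with folds of 4.98 (edit_myc_FLAG), 7.44 (myc_FLAG) and 6.47 (endog_myc), and none in IgG. A second locus, 2030 bp away, was in all 5 lists, with folds of 8.64 in edit_myc_FLAG, 5.39 in myc_FLAG, 5.09 in endog_myc, 5.61 in mouse IgG and 5.67 in rabbit IgG. The array of 17 annotated 5S genes lies at chr1:228610266-228646158, with the copies a median of 2241 bp apart. Within it and 2000 bp around lay 3 intergenic edit_myc_FLAG regions, 1 of myc_FLAG and 5 of endog_myc, with 0 in both IgG lists. With the regions inside genes or at the end of the neighbouring gene RHOU the numbers were 5, 4 and 7. Their folds were low, at 2.48 to 3.39 in edit_myc_FLAG, 2.397 to 2.95 in myc_FLAG and 2.49 to 3.26 in endog_myc. Before RNA5S1, the first of the copies, edit_myc_FLAG and endog_myc had overlapping regions with folds of 3.26 and 3.11. Near RNA5S6, RNA5S8 and RNA5S13 the regions of the 2 lists did not overlap. The copies are near-identical, so the placement of reads among them is uncertain. The IgG lists are also far shorter than the target lists, at 215 and 212 regions against 942 to 1735. Their 0 regions at the array are thus not a measure of absence.

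Of 509 genes and pseudogenes of 5S RNA, 5 were the nearest gene of an intergenic region in edit_myc_FLAG (0.982%), 2 in myc_FLAG (0.393%) and 6 in endog_myc (1.18%), against 1 in each IgG list (0.196%). Over all 55778 genes the shares were 0.457%, 0.194% and 0.210% in the target lists, against 0.0574% in mouse IgG and 0.0681% in rabbit IgG. Among 2401 genes and pseudogenes of small nuclear and related RNAs the counts were 9, 2 and 2, and 0 in both IgG lists. RNU6-175P on chromosome 2 had a region 12619 and 12591 bp away with 10.01 in edit_myc_FLAG and 8.91 in endog_myc, while RNU6-178P, RNU6-393P and RN7SL400P had regions in edit_myc_FLAG alone with 6.71, 6.21 and 6.13. Of 422 transfer RNA genes 2 were near regions, both in edit_myc_FLAG: TRE-TTC4-2, a glutamate tRNA gene, with 5.66, and TRQ-TTG1-1, a glutamine tRNA gene 158 bp away, with 4.96. Of 1854 microRNA genes 3 were near regions in edit_myc_FLAG and 1 in each other list, and those outside IgG were MIR4477A with 5.49 and MIR1299 with 5.09. These counts are small and carry no test.

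None of the gene groups MYC is best known for was found next to intergenic regions. The count was 0 in all 5 lists for the 13 genes of the MAX network, 59 of ribosome biogenesis, 39 translation factors, 35 cell cycle genes and 19 glycolysis genes. It was also 0 for the 13 non-coding neighbours of the MYC gene itself, 17 immediate early genes, 21 genes of the large ribosomal RNA precursor and its products, and 367 olfactory receptor genes. With at most 0.457% of all genes next to a region, lists of these sizes would hold few such genes or none at the rate of all genes, so the zeros show no difference from other genes. Regions within 1000 bp of the ends of these protein-coding genes belong to another class and were not counted. Regions on the short arms left out were not counted either. For genes that lie there, which may include those of the large ribosomal RNA, a count of 0 was fixed by that rule.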

How the data were processed

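Each target list came from 3 libraries and each IgG list from 1. The submitters' processing notes name MACS3 3.0.0b1, HOMER 4.10, SAMtools 1.15 and Bowtie2 2.4.5, with hg38 as build. No source used here gives their roles, the caller's options, its control or the way libraries were merged. The deposited lists hold, per region, a start, an end, a score, a fold, a −log10 q and a summit offset, made by the authors' caller. The authors' score was read and not used, the deposited −log10 p was not analysed here, and fold and −log10 q described or filtered regions within a list.

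Summits were set against 58419 gene spans of a RefSeq table for GRCh38.p14, the assembly of hg38, after leaving out 679 rows placed on scaffolds. That table has no strand, which was taken from the 35116 RefSeq promoter windows where a gene had one. Positions count from 1. No hg38 sequence at the regions was used here, so E-boxes were searched in promoter windows only. Overlap meant at least 1 bp. Tests were two-sided Fisher's exact tests and exact McNemar tests in Python 3.11.15 with scipy 1.17.1, adjusted by Benjamini-Hochberg within 6 families (33 tests) and called at an adjusted p under 0.05. Shares carry 95% Wilson intervals and differences Newcombe intervals built from them. The tests were tried on simulated data. The loci named were the 12 best by mean rank in all target lists without IgG, the 5 best with IgG, the 5 highest found in 1 list only, up to 10 near non-coding gene ends or in each gene list, and those at the limits. Chromosome tips, the 5S array, the promoter windows and the crowded windows were chosen after values were seen. The members and gene lists were chosen with earlier results of these data known.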

Additional observations from a re-analysis of the deposited data

How the results depend on the processing

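Of 207 values under alternatives for 33 results, 145 kept their direction and side of the threshold, 26 lost the call, 9 gained one and 27 turned their sign. Of these 27, 26 were past the threshold neither before nor after. All differences here are in percentage points. A minimum overlap of 50%, overlap within 500 bp, a limit of 50 kb, a near limit of 5 kb, the IgG of the antibody species only, IgG regions kept and all rows of the gene table changed no call in the results they were run on. The cause of the changes was not tested.

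The −log10 q limit of at least 5 was applied to the target and IgG lists alike, so only IgG regions past it defined outside IgG. Recurrence outside IgG against gene ends was then 18.4 in edit_myc_FLAG, 15.1 in myc_FLAG, where the sign turned, and 16.2 in endog_myc. Against gene-poor regions it was −8.98, 22.1 and 18.7. The share within 10 kb of a gene in edit_myc_FLAG then differed by 14.5 from mouse IgG, 5.64 from myc_FLAG and 6.36 from endog_myc. The share beside the gene-free stretch differed by −7.06 between edit_myc_FLAG and myc_FLAG, −7.31 between edit_myc_FLAG and endog_myc and −14.6 between endog_myc and rabbit IgG.

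With protein-coding genes only, the intergenic share differed from mouse IgG by −1.73 in edit_myc_FLAG and −4.18 in myc_FLAG, and the share of edit_myc_FLAG within 10 kb by 8.37 from mouse IgG, 5.65 from myc_FLAG and 4.02 from endog_myc. With lists cut to equal length, the intergenic share of edit_myc_FLAG differed from mouse IgG by −9.30, and the share of myc_FLAG regions by −14.5 between edit_myc_FLAG and endog_myc. With target regions in IgG left out, the share within 10 kb exceeded IgG by 18.9 in myc_FLAG and 19.6 in endog_myc, which, as said above, lends no independent support. With a flank of 5 Mb, the share beside the stretch differed by −12.0 between endog_myc and rabbit IgG, and the call was lost. With regions within 10 kb counted once, it differed by −16.8 between myc_FLAG and mouse IgG, −15.2 between endog_myc and rabbit IgG, −7.52 between edit_myc_FLAG and myc_FLAG and −4.79 between edit_myc_FLAG and endog_myc.

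Leaving out the 2 densest windows was chosen after seeing the data. The intergenic share of edit_myc_FLAG then differed from mouse IgG by −6.67. Intergenic overlap with IgG differed from gene-poor regions by −9.55 in edit_myc_FLAG and 6.41 in endog_myc. The first of these, a gained call, lends no independent support, as said above. Recurrence of edit_myc_FLAG regions differed by −5.71 between myc_FLAG and endog_myc. The share of edit_myc_FLAG within 10 kb differed by 18.0 from mouse IgG, 11.3 from myc_FLAG and 12.6 from endog_myc. The share beside the stretch differed by −13.8 between myc_FLAG and mouse IgG, −6.36 between endog_myc and rabbit IgG and −7.73 between edit_myc_FLAG and myc_FLAG.

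The signs that turned without a call follow. The intergenic share of edit_myc_FLAG against myc_FLAG became 0.492 at the stricter q limit, 2.43 without regions in IgG, 0.903 with a limit of 50 kb, 2.45 with protein-coding genes only and 2.08 without the windows, and against endog_myc 1.22, 1.24, 1.11, 2.32 and 1.03. That of myc_FLAG against endog_myc became 0.729 at the q limit, 2.44 at equal length and 0.210 at 50 kb. IgG overlap of edit_myc_FLAG against gene-poor regions became 2.51 at the q limit. Recurrence against gene ends became 5 in myc_FLAG with 50% overlap, −5.95 in edit_myc_FLAG and −6.69 in endog_myc at equal length, and −5.05 and −3.37 in those lists without the windows. At equal length, recurrence of myc_FLAG against gene-poor regions became −4.76, and that of endog_myc regions in edit_myc_FLAG against myc_FLAG −8.82. Between myc_FLAG and endog_myc the share within 10 kb became 0.722 at the q limit, 0.197 without regions in IgG and 1.25 without the windows, and the share beside the stretch −0.251 at the q limit and −1.96 without the windows.

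Some calls were kept at a size changed by over 1.5 times. Beside those in the text above, intergenic overlap with IgG in endog_myc exceeded gene-poor regions by 10.2 with 50% overlap, and that in edit_myc_FLAG exceeded gene ends by 17.4 without the windows. The share beside the stretch differed from IgG by −31.4 in myc_FLAG and −28.7 in endog_myc without regions in IgG. The regions left out were chosen by overlap with the IgG lists, and 65 of 102 in myc_FLAG and 65 of 100 in endog_myc lay beside the stretch. Both values thus lend no independent support. At equal length the share differed from IgG by −35.3 in myc_FLAG and −43.3 in endog_myc. Between edit_myc_FLAG and endog_myc it differed by −23.0 at equal length and −9.69 without the windows.

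No paired analysis was possible because each list merges its libraries, and no replicate was left out for that reason. Depth is unknown, and a region missing from a list is not shown to lack signal.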

Other observations

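Nuclear copies of mitochondrial genes, a group chosen by symbol after values were seen, lay beside a few intergenic regions of high fold. Next to MTRNR2L8 on chromosome 11, a copy of the mitochondrial large ribosomal RNA gene, overlapping regions stood in all 5 lists, 474 to 499 bp wide in the target lists and rabbit IgG and 369 bp in mouse IgG. Its fold was 15.6 in edit_myc_FLAG, 18.9 in myc_FLAG and 17.3 in endog_myc, against 12.5 in mouse IgG and 16.1 in rabbit IgG. With MTCYBP13 on chromosome 17, it was among the 16 highest intergenic regions by fold of each list. MTCO1P39 and MTCO1P57, copies of the cytochrome oxidase subunit I gene, had regions in edit_myc_FLAG alone, with folds of 5.19 and 4.22, and MTCO2P1, a copy of the subunit II gene, had 1 in mouse IgG alone with 6.19. Of 510 such copies 4 were the nearest gene of an intergenic region in edit_myc_FLAG (0.784%), 2 in myc_FLAG (0.392%) and 2 in endog_myc (0.392%). In mouse IgG it was 3 (0.588%) and in rabbit IgG 2 (0.392%). Over all genes the shares were 0.457%, 0.194% and 0.210% in the target lists, 0.0574% in mouse IgG and 0.0681% in rabbit IgG. These counts are small and were not tested.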
